A study of Mus musculus with 27 samples.

Results

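The lowest end of a TCDD dose response was examined here: 9 mice given 0.01, 0.03 or 0.1 μg/kg, taken as a single group, against 3 mice given the sesame oil vehicle (0 μg/kg), 12 of the 27 libraries of the series. The 9 were chosen by the dose on their labels (3 mice at each dose), and no measured value entered the choice. TCDD, a chlorinated dioxin, is persistent in the body. All mice were C57BL/6 males, 28 days old at the first gavage and 56 days old at collection on day 28. They received 7 gavages, 1 every 4 days, and the RNA came from scrapings of the colonic epithelium. Each library was 1 mouse, and mice are called by the number in their label: 2, 3 and 4 (vehicle), 9, 11 and 14 (0.01 μg/kg), 18, 19 and 20 (0.03 μg/kg), and 25, 27 and 28 (0.1 μg/kg). The question was which genes, if any, changed below the dose at which Cyp1a1 is induced, and which genes differed most from mouse to mouse.

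The aryl hydrocarbon receptor (AhR) is the transcription factor through which dioxins act. It resides in the cytosol in a complex with Hsp90 and p23 (Ptges3), moves to the nucleus when a ligand binds, pairs with Arnt and binds a short DNA core, GCGTG. Its classical targets are the cytochrome P450 genes Cyp1a1, Cyp1a2 and Cyp1b1, the receptor's own repressor Ahrr, the ADP-ribosyltransferase Tiparp, and enzymes of phase II metabolism such as Nqo1. In the gut wall, Cyp1a1 also clears dietary ligands of the receptor.

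Between 9416898 and 14371035 reads per library were assigned to genes, and 15492 genes passed the count filter of edgeR. The epithelial markers were abundant in every mouse (Krt8 at 2500 to 3530 CPM, the read count scaled to a fixed library total, and Cdh1, which encodes E-cadherin, at 1020 to 1360 CPM). Markers of other tissues were not even between mice. Vehicle mouse 3 and, at a lower level, mouse 14 (0.01 μg/kg) contained transcripts of pancreatic enzymes, the 3 mice at 0.01 μg/kg had the highest levels of fat cell genes, and mouse 14 stood apart in its clock genes. Their values are given with many of the results they touch. In bulk tissue, fewer cells of a type and less RNA per cell cannot be told apart.

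The proximal promoters of Cyp1a1 and Ahrr are shown because the absence or presence of induction is read from these genes. RefSeq promoters (250 bases before to 50 bases after the start, build GRCm38.p6) were found for 11 of the 16 genes of the AhR list. Of these, 6 held GCGTG on either strand, and 32.4% of all 32851 promoters of that length did. Capitals mark GCGTG, and a match is a run of letters that says nothing of binding in these mice. Cyp1a1 (chr9:57697363-57697662, plus strand) has 1 match at position -54, and Ahrr (chr13:74292282-74292581, minus strand) has 3 at positions -107, -82 and -27, counted from the start site.
Cyp1a1: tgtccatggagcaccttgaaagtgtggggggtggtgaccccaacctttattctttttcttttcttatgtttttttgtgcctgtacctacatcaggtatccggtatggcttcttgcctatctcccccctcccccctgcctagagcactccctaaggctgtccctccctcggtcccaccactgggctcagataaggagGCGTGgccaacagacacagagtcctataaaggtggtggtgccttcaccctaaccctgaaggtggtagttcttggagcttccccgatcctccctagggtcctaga
Ahrr: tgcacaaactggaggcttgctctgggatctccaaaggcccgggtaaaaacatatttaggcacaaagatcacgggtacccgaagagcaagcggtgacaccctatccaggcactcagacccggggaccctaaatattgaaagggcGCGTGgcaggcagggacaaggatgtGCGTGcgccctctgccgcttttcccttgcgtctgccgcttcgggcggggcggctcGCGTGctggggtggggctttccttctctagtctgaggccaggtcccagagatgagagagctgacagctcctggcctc

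Cyp1a1 was at the limit of detection in all 12 mice. Vehicle mice 2, 3 and 4 had 1, 0 and 1 reads. Mice 9, 11 and 14 had 0, 1 and 0 reads, mice 18, 19 and 20 had 0, 2 and 0, and mice 25, 27 and 28 had 0, 1 and 1. Summed, this was 5 reads in 102264334 for the low doses (0.0489 CPM, exact 95% Poisson interval 0.0159 to 0.114) and 2 reads in 30196196 for vehicle (0.0662 CPM, 0.00802 to 0.239), and the intervals cover counting error only. The ratio of low doses to vehicle was 0.738, with an interval of 0.121 to 7.75. An exact permutation test of mean CPM over the 220 assignments of mice gave p = 0.782 (two-sided), where the smallest p that this design allows is 0.00909. At the next dose, 0.3 μg/kg, the 3 mice had 5, 6 and 7 reads (0.48 CPM, interval 0.285 to 0.759). The upper bound of the low doses thus lay under the lower bound at 0.3 μg/kg, and each of those 3 mice had more reads than any of the 12 below it. From there the counts went to 74, 66 and 39 reads at 1 μg/kg, and to 29287, 29023 and 23969 at 30 μg/kg.

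Other targets were also too low for the fit. Cyp1b1, a second P450 gene of the AhR battery, had 14 reads over the 9 treated mice and 4 over the vehicle mice (ratio 1.03, interval 0.325 to 4.31, exact permutation p = 0.9). Cyp1a2 had 0 reads in each of the 12 mice, which allows up to 0.0361 CPM at the low doses. Aldh3a1, an aldehyde dehydrogenase, had 5 reads, all in mice 27 and 28, and 1 read in vehicle mouse 4 (exact permutation p = 1).

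Of the 16 AhR genes, 12 were abundant enough for the fit, and none had an unadjusted p under 0.05 in the pooled contrast. Their median log2 fold change was 0.06, beside 0.0035 over all genes tested. Ahrr was at 1.68, 1.49 and 2.16 CPM in the vehicle mice and from 1.13 through a median of 2.05 to 2.45 CPM in the treated mice, with a log2 fold change of 0.10 ± 0.24 (SE). The vehicle and treated values overlapped fully. Tiparp was at 33.1, 25.1 and 24 CPM in vehicle and 21.7, 24 and 28.2 CPM (lowest, median, highest) at the low doses, a log2 fold change of -0.16 ± 0.10. Nqo1, a quinone reductase, was at 40.0, 62.1 and 55.1 CPM in vehicle and 31.9, 55.1 and 66.2 CPM at the low doses, a log2 fold change of 0.01 ± 0.18 whose sign turned under other settings. Cyp2s1, a P450 of epithelia, had -0.16 ± 0.11. Ahr, Tiparp and Cyp2s1 overlap annotated genes on the opposite strand, and since the strand setting of the counting is not given, reads of the overlapping genes may not be told apart from theirs. The receptor itself (Ahr, -0.05 ± 0.12), its partner Arnt (0.03 ± 0.07) and the chaperones Hsp90ab1 (0.03 ± 0.06) and Ptges3 (0.12 ± 0.07) differed by less than 2 SE. Nfe2l2, the antioxidant regulator, had 0.10 ± 0.10. Ugt1a6a and Ugt1a6b, glucuronosyltransferases of a locus whose genes share exons, had 0.09 ± 0.17 and 0.09 ± 0.19. Reads in exons that genes share may be missing from both counts or assigned to either, so these values are uncertain.

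**Figure D1:**
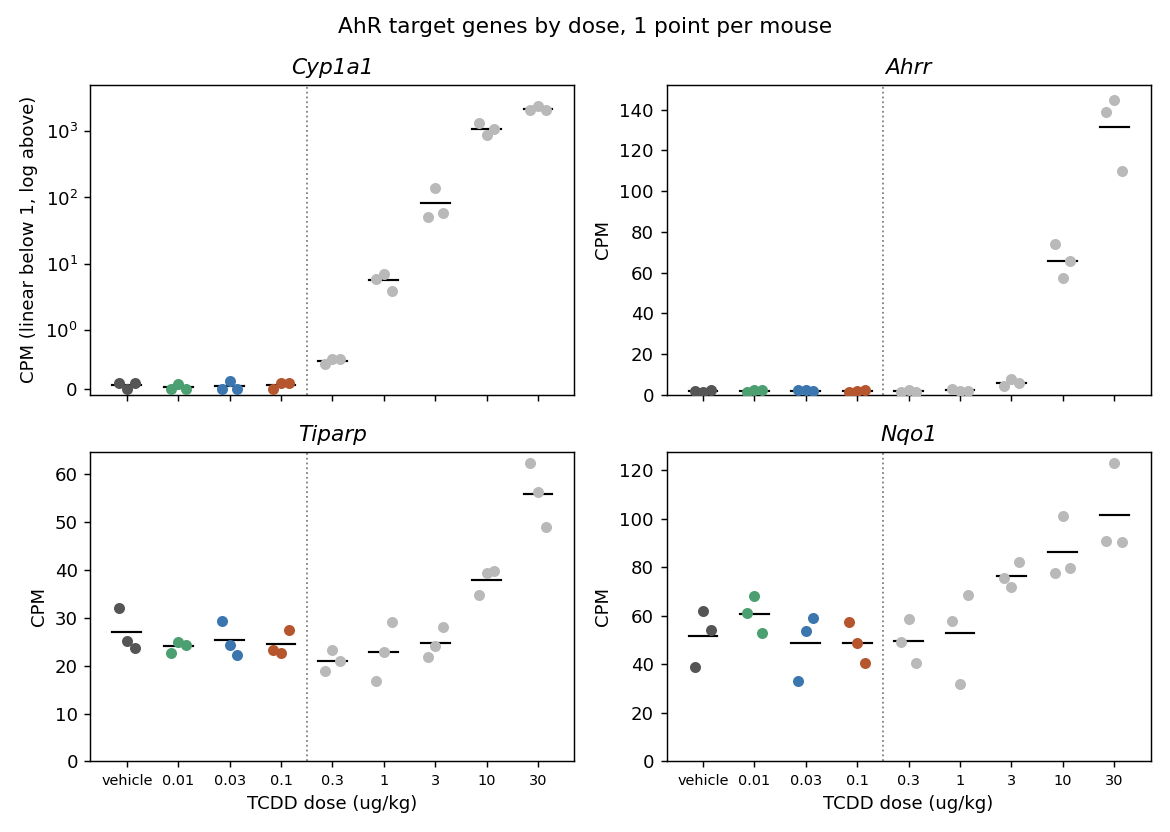
CPM of Cyp1a1, Ahrr, Tiparp and Nqo1 in each of the 27 mice by TCDD dose (μg/kg), with a bar at each group mean and a dotted line after the 3 lowest doses; the Cyp1a1 axis is linear below 1 and logarithmic above. Cyp1a1 has 0 to 2 reads per mouse through 0.1 μg/kg and 5, 6 and 7 reads at 0.3 μg/kg.

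In the pooled contrast, no gene passed an adjusted p of 0.05 with a fold change of at least 1.5 (0 of 15492 genes, 0%, edgeR quasi-likelihood test, Benjamini-Hochberg adjustment over all genes tested). The smallest adjusted p was 0.172, for Cdk1. Without adjustment, 555 genes (3.58%) were higher and 522 (3.37%) lower in the treated mice at p under 0.05, 1077 in all. DESeq2 called 5 genes on the same counts (Cdk1 and Hsph1 higher, Tat, Ptk6 and Casp4 lower), and limma voom called 0. Leaving out vehicle mouse 2 lowered the count of unadjusted p under 0.05 to 655. For genes with a mean of at least 5 CPM, the median half-width of the 95% interval of a log2 fold change was 0.22.

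The genes of smallest p, 5 higher and 4 lower, are described as genes that were not called. Cdk1, the kinase that drives entry into mitosis, was at 13.0, 13.2 and 13.7 CPM in the vehicle mice and at 16.6, 20.1 and 23.7 CPM (lowest, median, highest) in the treated mice. All 9 treated mice lay above all 3 vehicle mice, as they did for 127 genes of the table (0.82%). The log2 fold change was 0.63 ± 0.10 (1.54-fold, unadjusted p = 1.1e-05). Its adjusted p ranged from 0.000458 (DESeq2) to 0.59 over the other settings, and with mouse 27 left out it was called by edgeR (0.0275). Gtse1, a protein of the G2 and S phases of the cell cycle, was at 5.54, 5.62 and 6.37 CPM in vehicle against 6.87, 8.77 and 9.93 CPM, again without overlap (log2 fold change 0.58 ± 0.13).

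Mogs, the glucosidase that trims N-glycans in the endoplasmic reticulum, was at 35.4, 36.4 and 42.3 CPM in vehicle and 46.1, 49.3 and 54.9 CPM at the low doses (0.38 ± 0.07). Dohh, which completes the hypusine modification of the translation factor eIF5A, was at 13.5, 13.8 and 14.5 CPM against 16.5, 17.7 and 19.3 CPM (0.34 ± 0.07). Otc, the ornithine transcarbamylase of the urea cycle, which the gut also expresses, was at 10.1, 11.4 and 10.6 CPM against 13.1, 14.7 and 16.7 CPM (0.47 ± 0.10). None of these 3 overlapped between the groups, and the adjusted p of each was 0.379.

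Among the lower genes, Tec, a kinase of lymphocyte and myeloid signalling, had the second smallest p of the table. It was at 23.7, 24.7 and 22.1 CPM in vehicle and 17, 18 and 18.8 CPM at the low doses, below all vehicle mice, as held for 124 genes (0.8%) of the table (-0.38 ± 0.06, adjusted p = 0.224 by edgeR). Tifa, an adaptor that leads from bacterial sugars to NF-kB, was at 53.5, 58.3 and 49.5 CPM against 30.7, 36.0 and 48.6 CPM (-0.54 ± 0.10). It overlaps Ap1ar on the opposite strand, with the same limit. Its highest treated value, in mouse 11, was just under the lowest vehicle value, and without mouse 11 it was called (adjusted p = 0.0259, edgeR). Ptk6, an epithelial kinase of differentiating gut cells, was at 42.9, 41.7 and 36.0 CPM against 17.5, 25 and 30.6 CPM (-0.74 ± 0.15, 1.67-fold lower). Tat, tyrosine aminotransferase, differed more in size (-0.76 ± 0.15) but not without overlap: the vehicle mice had 77.4, 64.0 and 46.1 CPM, and 8 of the 9 treated mice lay below all of them.

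**Figure D2:**
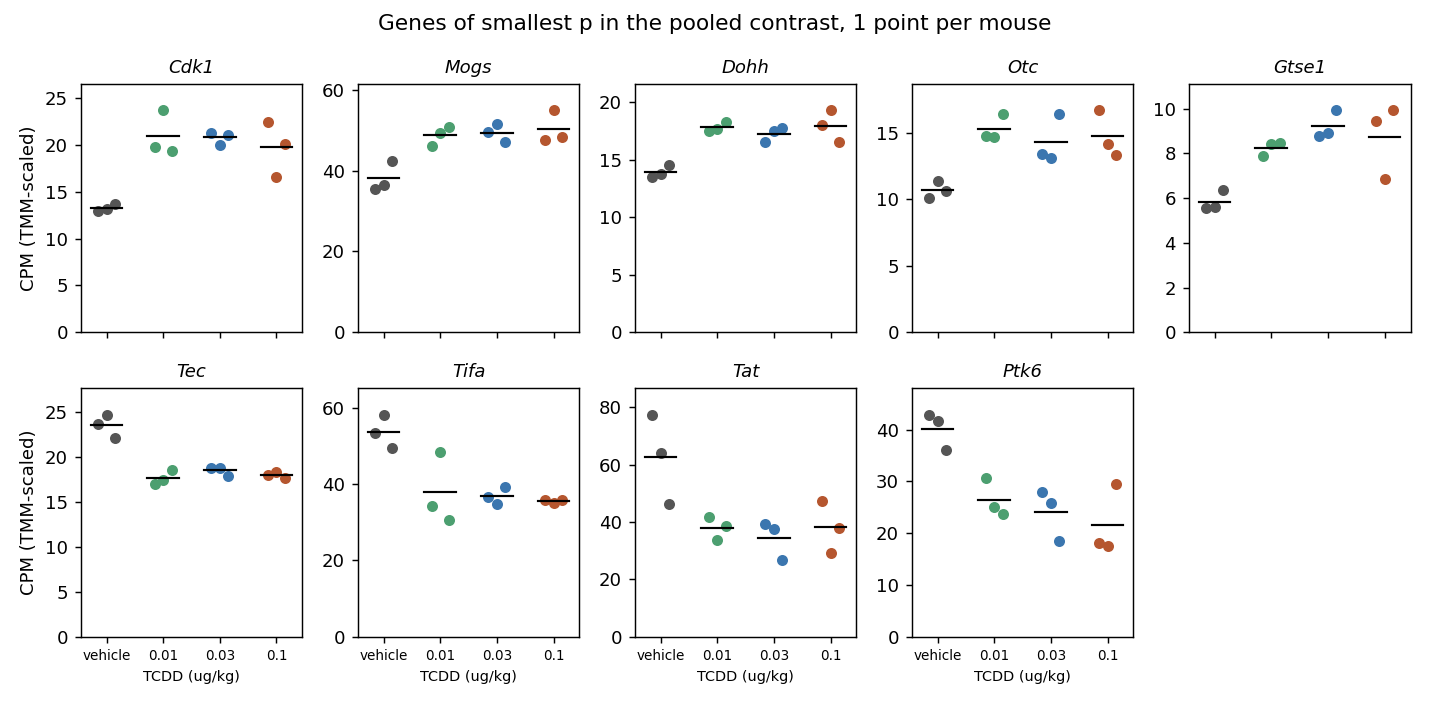
TMM-scaled CPM of the 5 higher (top) and 4 lower (bottom) genes of smallest p that are described, 1 point per mouse, by dose in μg/kg, with a bar at each group mean. The treated and vehicle mice do not overlap for any of these 9 genes but Tat, and the 3 dose groups lie at similar heights.

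Each dose was also set beside vehicle on its own. For Cdk1 the log2 fold changes at 0.01, 0.03 and 0.1 μg/kg were 0.66, 0.65 and 0.57, for Tec -0.42, -0.34 and -0.39, and for Ptk6 -0.60, -0.73 and -0.89, and these comparisons share the vehicle mice. Scaled over all 27 libraries, Cdk1 had a mean of 13.2 ± 0.45 CPM (SD, n = 3) in vehicle and of 20.9 ± 2.32, 20.7 ± 0.741 and 19.7 ± 2.97 CPM at the 3 low doses. At the 5 higher doses, in rising order, the means were 13.5 ± 1.91, 12.8 ± 3.93, 16.4 ± 0.747, 11.9 ± 0.872 and 12.1 ± 2.36 CPM. The highest of the 15 mice at those doses (17.2 CPM) lay above the lowest low-dose mouse (16.5 CPM) and below the others. Gtse1 ran alongside, with 5.83 ± 0.482 CPM in vehicle, 8.24 ± 0.284 to 9.18 ± 0.633 CPM at the low doses and 5.04 ± 1.52 to 7.42 ± 0.417 CPM above them. Mogs and Dohh did not: their means at the higher doses (43 to 47.3 and 15.8 to 18.5 CPM) stayed above vehicle (37.9 and 13.9 CPM). Otc had means of 12.6 to 13.7 CPM from 0.3 to 3 μg/kg. At 10 and 30 μg/kg it had 7.07 and 4.16 CPM, against 10.6 CPM in vehicle. Tifa, a lower gene, was at 53.6 ± 4.16 CPM in vehicle, 35.6 ± 0.641 to 37.9 ± 9.34 CPM at the low doses, and 22.4 ± 5.01 CPM at 30 μg/kg. No test was made between the low and the higher doses.

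Each dose alone gave no call against vehicle by edgeR. At 0.01 μg/kg, 969 genes had an unadjusted p under 0.05 (486 higher, 3.14%, and 483 lower, 3.12%), with a smallest adjusted p of 0.206. At 0.03 μg/kg there were 742 (352 higher, 2.27%, and 390 lower, 2.52%; smallest adjusted p 0.956), and at 0.1 μg/kg 904 (438 higher, 2.83%, and 466 lower, 3.01%; 0.481). A slope over dose rank gave 0 calls and 962 genes at an unadjusted p under 0.05 (477 rising, 3.08%, 485 falling, 3.13%), with a smallest adjusted p of 0.412.

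Among the 3 low doses, 1 gene differed at an adjusted p of 0.05 (0.00645% of the genes tested; 593 genes, 3.83%, at an unadjusted p under 0.05). It was the microRNA locus Mir6236 (chr9:110281287-110281409, 123 bases, plus strand; adjusted p = 0.0429, edgeR), named after its values were seen. The mature sequence that RefSeq (GRCm38.p6) gives for the locus is shown with its seed, bases 2 to 8, in capitals; the libraries were not made for small RNAs, and the reads count the locus, not the mature form.
mmu-miR-6236: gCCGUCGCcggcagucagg
Mice 9, 11 and 14 (0.01 μg/kg) had 415, 434 and 456 CPM. Mice 18, 19 and 20 had 189, 204 and 196 CPM, mice 25, 27 and 28 had 174, 258 and 200 CPM, and vehicle mice 2, 3 and 4 had 207, 180 and 266 CPM. The 0.01 μg/kg mice stood above all others, and the log2 fold change of that dose over vehicle was 1.00 ± 0.15, with an adjusted p of 0.206 in that comparison. The share of alignments that were not unique was 34.9% to 37.1% in the 0.01 μg/kg libraries, 34.6% to 35.6% in vehicle, and 32.3% to 35.6% in the other 6, and its part in this difference was not tested. The call was lost (adjusted p 0.175 to 0.414) when mouse 9, 11, 14, 18, 19 or 28 was left out.

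Without the filter on low counts, 27 genes differed among the low doses, Mir6236 among them. Of the 27 genes, 26 were also in the filtered test, where Mir6236 was the only call. In 22 of the 27 the 3 mice at 0.01 μg/kg all lay above the 6 other treated mice, and in 21 above the vehicle mice as well. Genes of fat cells were among the 27: 4 stand on the adipose list (Adipoq, Plin1, Cfd, Fabp4), and others are Plin4 and Lipe of the lipid droplet, Lpl, which unloads lipoproteins, Cd36, a fatty acid carrier, and Fasn and Scd1 of lipid synthesis, named after their values were seen. Also among the 27 was the abundant predicted gene Gm26917, at 25200, 24600 and 27500 CPM in mice 9, 11 and 14 and at 15400 to 22000 CPM in the other 9. Its part in the difference at Mir6236 was not tested.

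Gene lists were read in the pooled contrast by counts and medians, without a set test, beside 555 genes (3.58%) higher and 522 (3.37%) lower at unadjusted p under 0.05 over all genes. The cell cycle list was higher in all 13 of its members, 6 of them at unadjusted p under 0.05, with a median log2 fold change of 0.26. Ccnb1, the cyclin that partners Cdk1, was at 11.4, 11.1 and 8.92 CPM in vehicle and 11.1, 13.7 and 16.7 CPM at the low doses (0.40 ± 0.14). Mki67, the proliferation antigen, was less even (0.16 ± 0.19), and so was the replication helicase subunit Mcm3 (0.22 ± 0.19). The summed level of the list was 562, 556 and 623 CPM in vehicle and 535, 678 and 882 CPM (lowest, median, highest) at the low doses. Mouse 27 (535 CPM) lay below all vehicle mice and mouse 9 (614 CPM) within their range, and mouse 25 was the highest. The median of the list stayed between 0.20 and 0.34 with any mouse left out. Of the 5 stem cell genes of the crypt base that were tested, 4 were higher and 1 lower (median 0.23). Ascl2, a regulator of these cells, had 0.53 ± 0.24 and was the 1 member at unadjusted p under 0.05.

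All 7 members of the MHC class II list, genes of antigen presentation, had a negative log2 fold change (median -0.39), 3 of them at unadjusted p under 0.05 and none called. H2-DMa, which loads peptides onto class II molecules, was at 4.35, 4.46 and 3.53 CPM in vehicle and 1.81, 2.28 and 3.02 CPM at the low doses, with no overlap between the groups (-0.82 ± 0.18, adjusted p = 0.379 by edgeR). This gene overlaps Brd2 on the opposite strand. H2-Ab1, a class II chain, was at 12.8, 21.5 and 11.5 CPM against 7.33, 10.9 and 13.2 CPM, which overlapped (-0.47 ± 0.20). Vehicle mouse 3, the mouse with pancreatic transcripts, was the highest of the 12 for H2-Ab1, and without it the list's median was -0.11.

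Interferon-stimulated genes were lower in all 14 members (median -0.25, 3 at unadjusted p under 0.05). The summed level of the list was highest in vehicle mouse 3 (364 CPM) and lowest in mouse 14 (216 CPM). Its median stayed between -0.35 and -0.20 with any mouse left out, the latter without mouse 14. Zbp1, a sensor of viral nucleic acid, was at 23.3, 24.4 and 22.7 CPM in vehicle and 11.3, 16.4 and 19.2 CPM at the low doses, again with no overlap (-0.62 ± 0.16, adjusted p = 0.426 by edgeR). Casp4, an inflammatory caspase that is on none of the lists and was named after DESeq2 called it, was at 58.2, 38.2 and 42.0 CPM against 25.5, 27.7 and 39.6 CPM (-0.64 ± 0.13). Genes of T cells and intraepithelial lymphocytes were lower in 9 of 10 (median -0.39), of which Itgae, the integrin that holds these cells in the epithelium, had an unadjusted p under 0.05 (3.36, 6.15 and 4.12 CPM against 1.97, 3.09 and 3.69 CPM, -0.60 ± 0.21). Their median was -0.15 without mouse 3 and -0.66 without mouse 2.

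Antimicrobial genes were lower in 13 of 14 members, 5 of them at unadjusted p under 0.05 (median -0.35). Ang4, a bactericidal ribonuclease, was at 248, 165 and 367 CPM in vehicle and 35.2, 73.8 and 322 CPM at the low doses (-1.38 ± 0.50). Of the 9 treated mice, 8 lay below the vehicle mice, and mouse 14 lay among them at 322 CPM. Itln1, a lectin that binds microbial sugars, was also higher in the vehicle mice and mouse 14 than in the others, with 10.4, 5.20 and 13.8 CPM in vehicle, 13.2 CPM in mouse 14 and at most 5.07 CPM in the others (-1.19 ± 0.48). Tuft cell genes were lower in 12 of 14 (median -0.16), with 1, the taste G protein Gnat3, at unadjusted p under 0.05 (-0.80 ± 0.27). Goblet cell genes were divided, with 5 higher and 5 lower (median 0.0070, 1 at unadjusted p under 0.05 in each direction). The secreted protein Clca1 was at 6070, 4210 and 5760 CPM in vehicle and 1910, 3460 and 6080 CPM at the low doses (-0.58 ± 0.25). Spdef and Atoh1, transcription factors of secretory cells, had 0.39 ± 0.23 and 0.34 ± 0.18, and the mucin Muc2 had 0.17 ± 0.15.

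Several genes outside the lists were named after their values were seen. Pla2g4c, a cytosolic phospholipase, was at 15.5, 7.11 and 136 CPM in vehicle mice 2, 3 and 4, at 45.0 CPM in mouse 14, and at 1.62 to 4.41 CPM in the other 8 treated mice. The gasdermin gene Gsdmc2, of a family of near-identical copies, was at 246, 141 and 399 CPM in vehicle, 256 CPM in mouse 14 and 105 to 160 CPM in the others, so that mouse 18 (160 CPM) lay above vehicle mouse 3. In the 12 libraries neither was called (log2 fold changes of -2.82 ± 0.87 and -0.93 ± 0.27). With mouse 14 left out, 3 genes were called by edgeR, among them Pla2g4c (-4.17, adjusted p = 0.0337) and the pancreatic lipase relative Pnliprp2 (-3.80, 0.00561). With mouse 14 and the pancreatic vehicle mouse 3 both left out, an alternative chosen after seeing the data, 8 genes were called, all lower. Among them were Pla2g4c, Gsdmc, Gsdmc2, Gsdmc4, Pnliprp2, the complement regulator Cd55 and the stress gene Gadd45g. Socs3, the feedback inhibitor of cytokine signalling, was called at 0.03 and 0.1 μg/kg alone (-0.95, adjusted p = 0.0219); it was at 17.5, 20.4 and 14.4 CPM in vehicle, 8.62 to 9.54 CPM in these 6 mice, and 17, 11.6 and 6.28 CPM at 0.01 μg/kg.

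**Figure D3:**
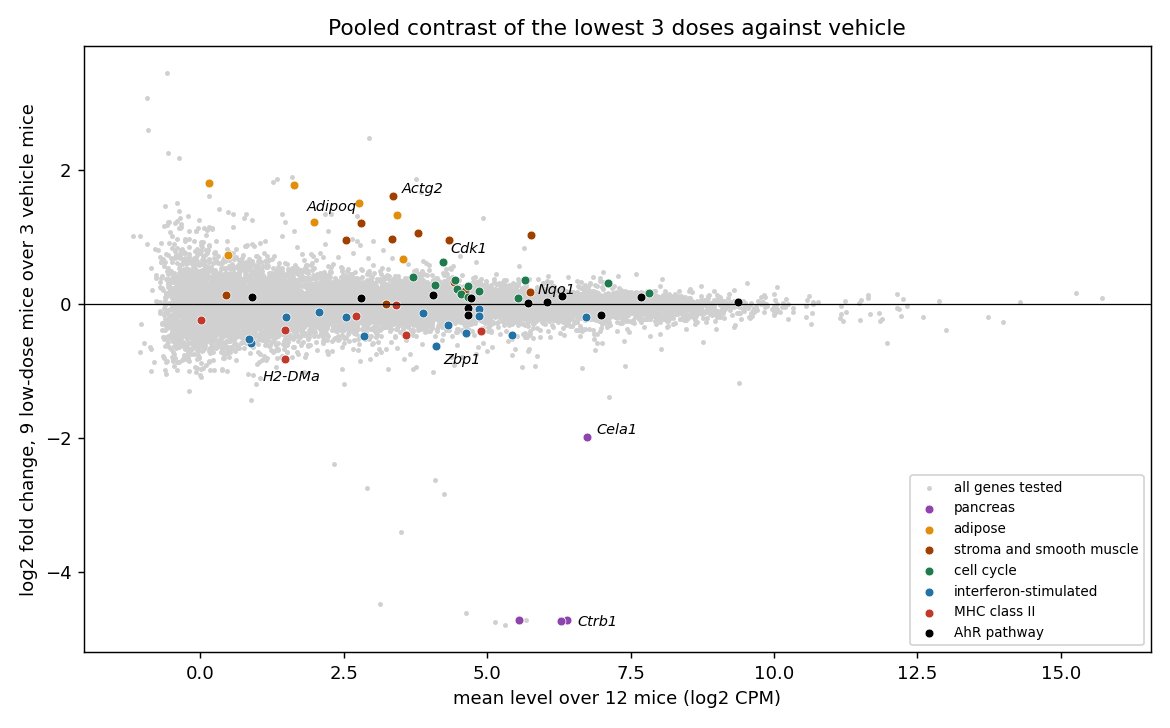
Log2 fold change of the 9 low-dose mice over the 3 vehicle mice against mean level (log2 CPM) for the 15492 genes tested, with the members of 7 lists in colour and some of them named. Pancreatic genes lie lowest, adipose and smooth muscle genes among the highest, and the AhR genes lie near the zero line.

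Heat shock, cobalamin, epithelial and small intestine genes were also counted. Hsph1, a heat shock protein and cochaperone, was higher in all 9 treated mice (14.7, 16.6 and 15.4 CPM in vehicle; 17.9, 26.6 and 33.1 CPM at the low doses; 0.71 ± 0.18, adjusted p = 0.426 by edgeR and 0.0463 by DESeq2). Of the 5 heat shock genes tested, 3 were higher and 2 lower (median 0.04), and 2 were at unadjusted p under 0.05, both higher: Hsph1 and the constitutive chaperone Hspa8 (0.20 ± 0.07), the latter named after its values were seen. Of the 14 genes of cobalamin handling, 9 were higher and 5 lower (median 0.07), and Mmachc, which processes cobalamin inside the cell, was the 1 member at unadjusted p under 0.05 (0.33 ± 0.14). Epithelial genes had a median of 0.0031 and colonocyte genes of -0.07. Small intestine genes were higher in 8 of 10 (median 0.24, 1 at unadjusted p under 0.05), and Lct, the lactase, was at 0.989, 1.17 and 0.392 CPM in vehicle and 0.476, 2.27 and 8.16 CPM at the low doses (1.86 ± 0.92).

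Variation between mice was measured as the standard deviation (SD) of log2 CPM about the mean of the dose group, over the 10973 genes with a mean of at least 5 CPM. The median SD was 0.15, and 97.5% of genes had an SD under 0.5. Only 39 genes (0.355%) had an SD of at least 1, of which Synm (1.03) and S100g (1.03) were just inside and Rims4 (0.998) and Cd36 (0.995) just outside. The 39 were chosen by this SD, so their spread is described and not tested. Some were high in the same mice, and Ctrb1, Hoxb13, Fabp4 and Actg2 were taken as examples of 4 such sets after their values were seen. The counts given for each set include its example, and the shares of all genes beside them are of these 10973 genes.

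The first set was pancreatic. Ctrb1, which encodes a chymotrypsinogen, was at 901 CPM in vehicle mouse 3, at 96.2 CPM in mouse 14 and at 0 to 3.29 CPM in the other 10 (SD 4.36, the largest of all genes). Pnlip, pancreatic lipase, was at 842 and 90.2 CPM in these mice and at 0 to 2.70 CPM elsewhere. Mice 3 and 14 were the highest pair for 13 of the 39 genes, and for 1.19% of all genes. The filter on low counts also removed 13 genes that had at least 100 reads in some mouse; 12 were highest in mouse 3, Prss2, a trypsinogen, with 2548 reads among them. In the pooled contrast all 4 tested pancreatic genes were lower (median -4.71), and without mouse 3 the median was 5.36, so the sign rested on that mouse. For Ctrb1 the log2 fold changes at 0.01, 0.03 and 0.1 μg/kg were -3.23 ± 1.92, -7.75 ± 2.60 and -7.71 ± 2.66 (SE).

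The second set is named here by Hoxb13, its 1 Hox gene. Hox genes are expressed in order along the body axis, and the last of each cluster mark the hind end. Hoxb13 was at 110, 41.8 and 35.3 CPM in vehicle, 29.4, 11.1 and 56.1 CPM in mice 9, 11 and 14, 116, 74.8 and 32.7 CPM in mice 18, 19 and 20, and 5.75, 32.9 and 85.2 CPM in mice 25, 27 and 28 (SD 1.30). Mice 2, 18, 19 and 28 were the highest in each of 9 of the 39 genes, against 1.85% of all genes. Among the 9 were the proton pump Atp12a (3.69 CPM in mouse 25, 307 CPM in mouse 2) and the transglutaminase Tgm3 (45.2 to 1040 CPM). Ly6g (1.03 to 24.4 CPM), which stands on the neutrophil list, was also among them. Of the other members of that list, S100a8 and S100a9 had at most 2 and 1 reads in any mouse, and Cxcr2 had 23 to 60. Hoxd13, too low to be ranked by SD, was at 6.03, 6.94, 3.78 and 7.72 CPM in these 4 mice and at 0 to 2.65 CPM in the rest. The anterior gene Hoxb6 was at 23.7 CPM in mouse 18 and 114 CPM in mouse 11, where Hoxb13 was at 116 and 11.1 CPM, while the anterior gene Hoxa4 was at 4.16 and 3.41 CPM in these mice. Cubn, the receptor for the cobalamin carrier, was lowest in mouse 18 (7.52 CPM) and mouse 2 (18.2 CPM), against 28.0 to 51.6 CPM elsewhere. The highest mice of this set came from vehicle and from 0.03 and 0.1 μg/kg. The posterior Hox median was -0.08 in the pooled contrast and 0.30 without mouse 2.

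The third set was of fat cells. Fabp4, the fatty acid carrier of adipocytes, was at 41.4, 20.7 and 22.0 CPM in mice 9, 11 and 14, which are all the mice at 0.01 μg/kg, and at 0.791 to 11.7 CPM in the other 9. Adipoq, the adipocyte hormone adiponectin, was at 15.2, 7.61 and 7.04 CPM in these 3 and at 0.206 to 5.34 CPM elsewhere. These mice were the highest for 4 of the 39 genes and for 0.556% of all genes. All 7 tested adipose genes were higher in the pooled contrast (median 1.33), and 6 had an unadjusted p under 0.05 among the doses. By dose the medians were 2.48, -0.07 and 0.14, and with 0.03 and 0.1 μg/kg alone the median was 0.01.

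Smooth muscle made the fourth set. Actg2, the enteric smooth muscle actin, was at 5.94, 3.71 and 2.35 CPM in vehicle and 2.39, 8.72 and 30.2 CPM at the low doses, highest in mice 9, 20, 11 and 28. These 4 mice were the highest for 3 of the 39 genes and for 0.346% of all genes, among them Cnn1, which encodes calponin, and Synm. Des, desmin, was at 10.9, 6.79 and 5.10 CPM in vehicle and at 29.3, 20.5, 33.1 and 19.5 CPM in mice 9, 11, 20 and 28. All 12 stromal and smooth muscle genes were higher in the pooled contrast (median 0.96), 2 of them at unadjusted p under 0.05, and the median stayed between 0.68 and 1.22 with any mouse left out. The part of these muscle, fat and pancreas genes in the other lists' differences was not tested.

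**Figure D4:**
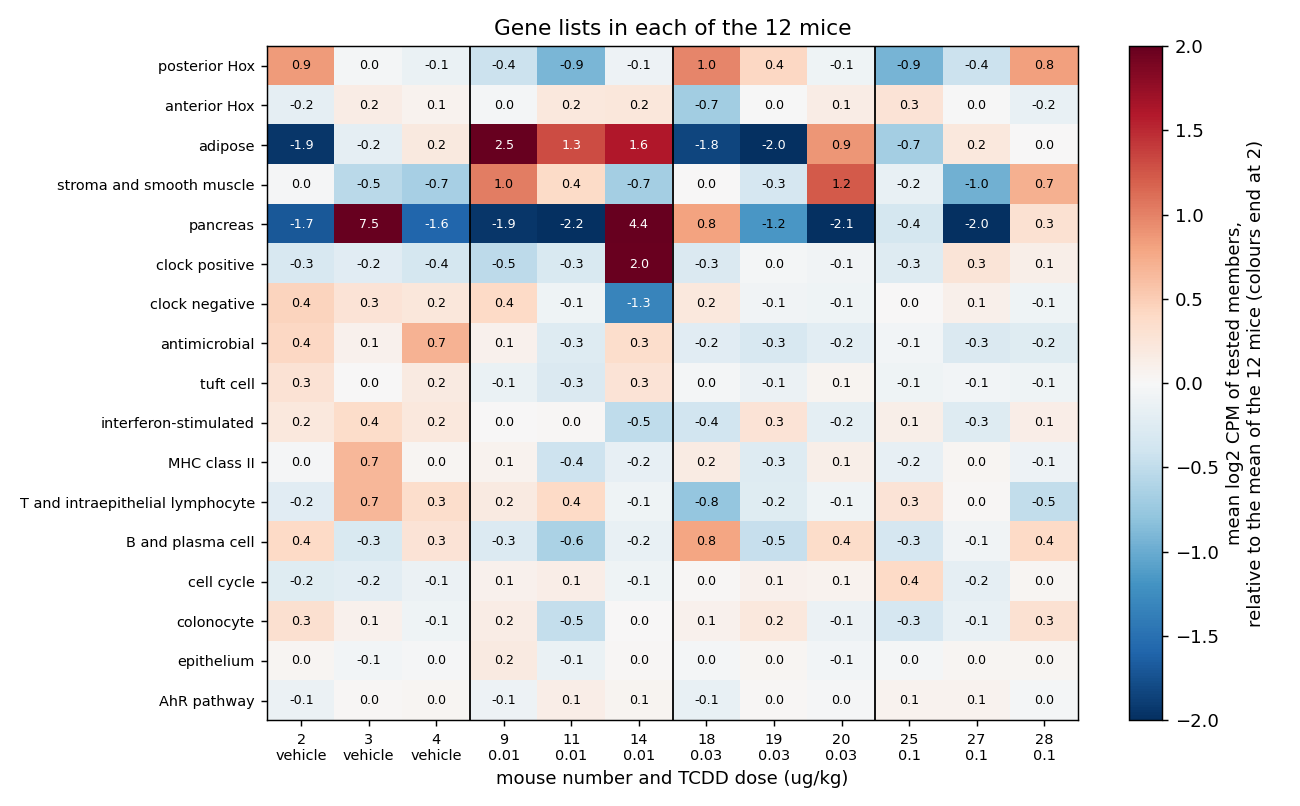
Mean log2 CPM of the tested members of 17 gene lists in each of the 12 mice, relative to the mean of the 12, with columns ordered by dose (μg/kg) and colours ending at 2. The pancreas row is high in mice 3 and 14, the adipose row in mice 9, 11 and 14, the posterior Hox row in mice 2, 18, 19 and 28, and the clock rows set mouse 14 apart.

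Mouse 14 was also apart in its clock genes. The circadian clock is a loop in which Arntl and Clock switch on Per, Cry, Nr1d1 and output genes such as Dbp and Tef through E-box sequences, CACGTG, and the Per and Cry proteins switch them off again. All mice were collected between ZT0 and ZT3 by the study's account. Dbp was at 60.1 CPM in mouse 14 and at 1.37 to 5.97 CPM in the other 11. Tef was at 124 CPM against 13.4 to 24.2 CPM, Nr1d1 at 142 CPM against 25.4 to 62.4 CPM, and Per2 at 54.7 CPM against 11.4 to 28.5 CPM. Genes of the opposite phase were lowest there: Arntl was at 11.8 CPM against 51.5 to 79.5 CPM, Npas2 at 25.4 CPM against 61.5 to 100 CPM, and Nfil3 at 2.09 CPM against 5.34 to 14.8 CPM. In the pooled contrast the 7 output and repressor genes tested were all higher (median 0.53) and the 5 others all lower (median -0.28), and without mouse 14 these medians were 0.15 and -0.19. Ciart, a clock repressor, had 113 reads in mouse 14 and 64 in the other 11 together, and the filter removed it. Mouse 14 alone was the highest mouse for 9.51% of the 10973 genes ranked by SD and for 2 of the 39, Dbp and Mptx1. Mptx1 was at 1540 CPM there, close to vehicle mice 2 and 4 at 1430 and 1190 CPM.

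The promoters of Ciart and Tef are shown because both genes set mouse 14 apart and both hold the E-box, for which they were picked. The promoters of Dbp, Nr1d1, Arntl, Npas2 and Nfil3, which also set mouse 14 apart, hold no CACGTG. Cry1, on the list of the opposite phase, holds 1 match. The part of the motif in the values of mouse 14 was not tested. RefSeq promoters were found for 14 clock genes, some with more than 1 start. Of these genes, 5 held CACGTG at 1 or more of their starts. Of all promoters, each start counted singly, 7.15% held it, so the 2 shares are in unlike units. Capitals mark CACGTG, which is its own reverse complement and does not overlap GCGTG in either sequence shown. Ciart (chr3:95882179-95882478, minus strand) has 3 matches at -116, -58 and -44, and Tef (chr15:81811164-81811463, plus strand, 1 of its 2 starts) has 1 at -138.
Ciart: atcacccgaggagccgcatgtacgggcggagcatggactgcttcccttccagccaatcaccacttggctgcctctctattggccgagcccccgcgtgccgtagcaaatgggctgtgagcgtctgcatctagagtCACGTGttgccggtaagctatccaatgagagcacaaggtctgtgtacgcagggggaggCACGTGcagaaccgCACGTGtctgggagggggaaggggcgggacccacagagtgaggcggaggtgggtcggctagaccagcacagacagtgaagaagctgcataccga
Tef: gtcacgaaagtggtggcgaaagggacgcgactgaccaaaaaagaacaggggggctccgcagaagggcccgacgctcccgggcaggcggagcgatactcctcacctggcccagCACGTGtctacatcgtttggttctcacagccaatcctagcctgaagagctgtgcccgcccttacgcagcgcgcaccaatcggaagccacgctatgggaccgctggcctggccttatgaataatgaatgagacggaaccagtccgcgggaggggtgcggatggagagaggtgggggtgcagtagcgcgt

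Genes outside these sets varied in other orders. The predicted genes Gm26870 and Gm10800 ran together: Gm26870 was at 14.8 to 47.5 CPM in mice 9, 11, 19, 25 and 27, and at 0.882 to 9.44 CPM in the other 7. The 5 high mice were all treated mice, and 4 treated mice lay within the vehicle range (log2 fold change 1.87 ± 1.08, adjusted p = 0.778 by edgeR). Slc15a2, a peptide transporter, was at 0.918 CPM in mouse 20 and 35.9 CPM in mouse 3. Apoa4, an apolipoprotein of the absorbing gut, was at 0.286 CPM in mouse 14 and 20.6 CPM in mouse 27. Reg3b, an antibacterial lectin, ranged from 91.7 CPM in mouse 18 to 789 CPM in mouse 4, and S100g, the calcium binding protein of absorptive cells, from 9.57 CPM in mouse 18 to 113 CPM in mouse 9. Pla2g4c is described above.

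**Figure D5:**
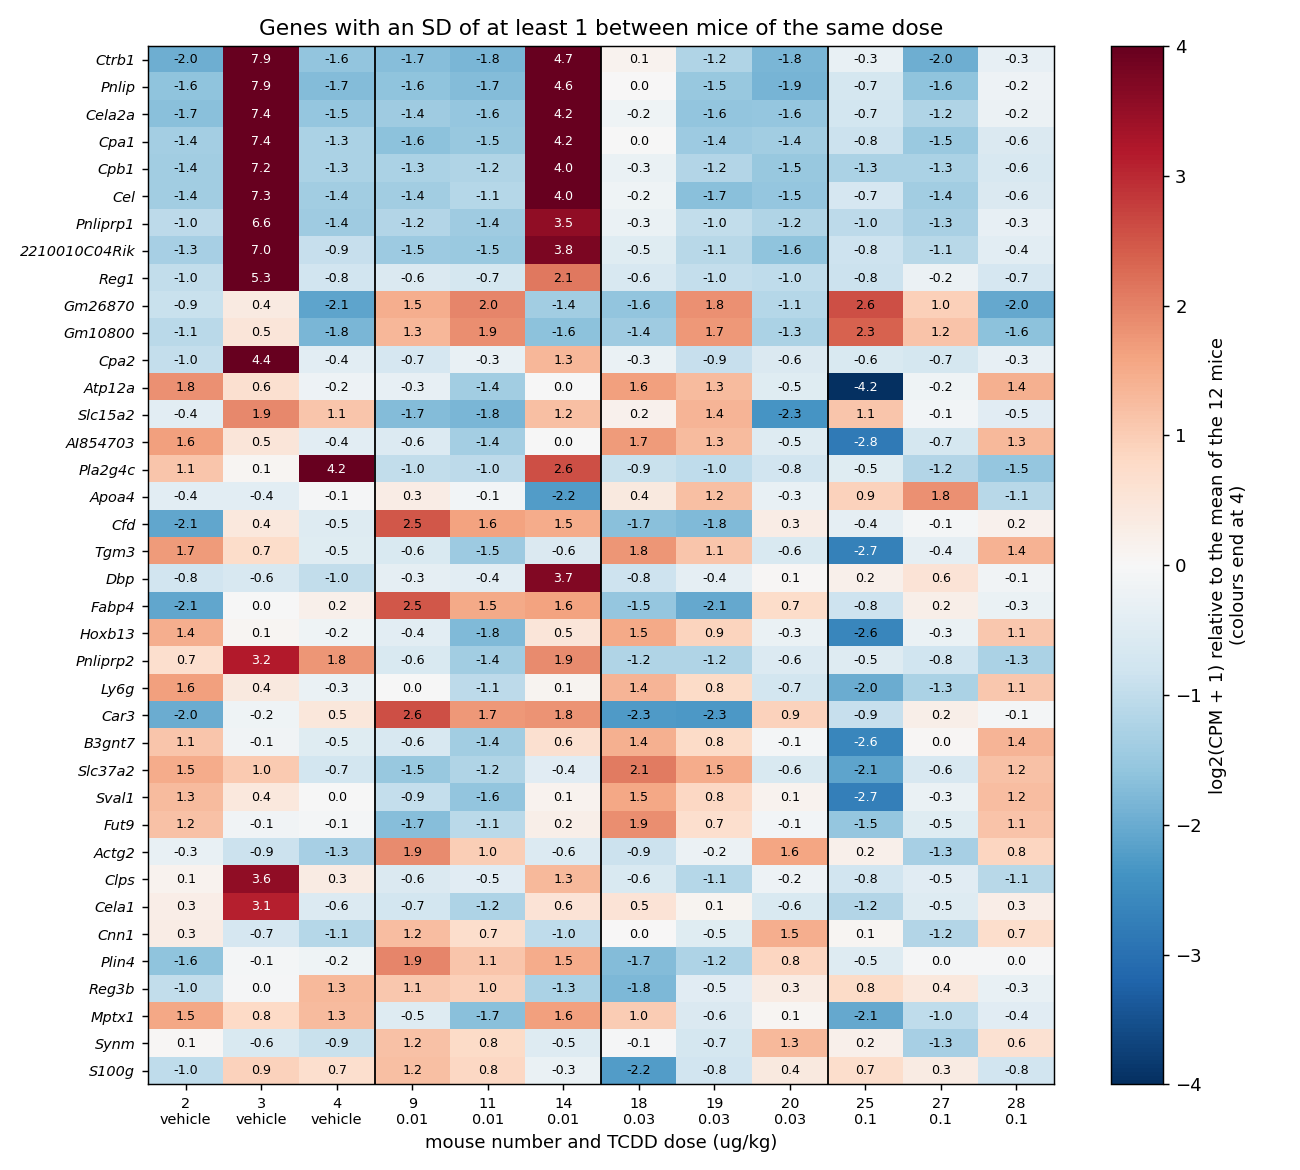
Log2(CPM + 1) of 38 of the 39 genes with an SD of at least 1, each relative to its mean over the 12 mice, in order of SD, with columns by dose (μg/kg) and colours ending at 4. Blocks of genes share their high mice, and the high mice of a block come from more than 1 dose group except for the adipose block and Dbp.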

How the data were processed

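Colonic epithelium RNA of 27 mice was sequenced from libraries made with the NuGen Ovation Mouse RNA-Seq System. The authors deposited raw counts per gene from HTSeq (0.6.1); the submitters' processing notes also name Trimmomatic (0.33), TopHat2 (2.1.0), SAMtools (1.2.0), FastQC (0.11.3), DESeq and the build GRCm38, while the strand setting and the annotation release are not given in the sources used here. Counts of genes that overlap another on the opposite strand, such as Atp12a, Dbp and Nr1d1, are therefore uncertain. Over the 12 libraries, the summary lines of HTSeq were dropped: no feature took 29.1% to 33.3% of reads, multiple alignments 32.3% to 37.1%, and ambiguous reads 0.392% to 0.607%.

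Genes were tested with edgeR (4.0.16, R 4.3.3) by the quasi-likelihood test with TMM scaling, after filterByExpr with a minimum count of 10, in the 12 libraries as 2 groups. A gene was called where it differed by 1.5-fold or more with a Benjamini-Hochberg adjusted p below 0.05. The doses were compared with each other and with vehicle in a fit of 4 groups, and a slope over dose rank was fitted. Genes too low for the fit were compared by exact permutation of mean CPM over mice. SE is that of the log2 fold change. SDs between mice used log2 CPM with a prior count of 2. CPM values are TMM-scaled, except for AhR genes too low for the fit and the plot of AhR genes by dose. Scripts were tested on simulated data. Alternatives used DESeq2 (1.42.0), limma (3.58.1), other filters, scalings and covariates, other dose sets, and each mouse left out.

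Genes are named by rule: the AhR list, the 5 genes of smallest p in each direction where none was called, the 20 genes of largest SD, up to 4 members per gene list, and Hox and clock genes; other genes, Fabp4, Synm, S100g, Mptx1, Rims4, Cd36, Socs3 and the called Pnliprp2 among them, were picked once their values had been seen. The members and the 32 lists were chosen with earlier results of these data known. The mice are separate animals, and p-values measure the spread between them. Results for a few genes are not reported here.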

Additional observations from a re-analysis of the deposited data

Results flagged for a closer look

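Of 74 named genes checked in the 9 low-dose mice, 13 had 1 mouse apart from the other 8, with a gap to its nearest neighbour, as a share of the whole range of log2 values, above Dixon's critical value at the 95% level. Chance flags about 1 in 20 groups of values, but these counts cannot be read against that rate: the genes were chosen in part for their large spread between mice or after the values of mouse 14 were seen, and they are not independent of each other. In 11 of the 13 the mouse was mouse 14 (0.01 μg/kg). It was the highest for the pancreatic genes Ctrb1 (share of the range 0.53), Pnlip (0.555) and Pnliprp2 (0.675), for the clock genes Dbp (0.656), Tef (0.737) and Nr1d1 (0.562), and for Pla2g4c (0.71) and Gsdmc2 (0.526). It was the lowest for the clock genes Arntl (0.80) and Npas2 (0.644) and for the granin gene Scg2 of enteroendocrine cells (0.665), at 0.381 CPM against at least 1.13 CPM in the others. The other mice apart were mouse 25, lowest for Atp12a (0.497; 3.69 CPM against at least 31.7 CPM), and mouse 18, lowest for Cubn (0.681; 7.52 CPM against at least 28.0 CPM).

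The difference among the 3 low doses at Mir6236 had an adjusted p of 0.0429 by edgeR, with the 0.01 μg/kg mice at 415, 434 and 456 CPM and the other 6 treated mice at 174 to 258 CPM.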

How the results depend on the processing

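The pooled contrast had 0 calls by edgeR in the 12 libraries, and other settings gave 5 (DESeq2), 1 (limma voom, posterior of 0.8 or more), 3 (clock score as a covariate), 2 (0.03 and 0.1 μg/kg only), 8 (mice 3 and 14 both left out, chosen after seeing the data) and 0 to 3 with 1 mouse left out. Members of the gene lists called numbered 2 by DESeq2, 1 by the posterior and 0 to 1 with 1 mouse left out. Genes that differed among the low doses numbered 27 without the filter on low counts, 0 without mice 3 and 14, and 0 to 5 with 1 treated mouse left out. Genes with an SD of at least 1 numbered 79 with a limit of 1 CPM, 24 without mice 3 and 14, and 33 to 49 with 1 mouse left out. Genes at unadjusted p under 0.05 numbered 1678 without the filter. A slope over log10 dose in the treated mice gave 0 calls (197 rising and 339 falling at unadjusted p under 0.05). The cause of these shifts was not tested.

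The log2 fold change of Nqo1 turned to -0.00039 under limma voom by either criterion, -3.26e-05 with 4 dose groups, -0.121 with the posterior Hox score as a covariate and -0.118 with 0.03 and 0.1 μg/kg only. Arnt turned to -0.012 with 0.01 and 0.03 μg/kg only, Ahrr to -0.037 and Ctrb1 to 2.79 without mice 3 and 14, and Fabp4 to -0.0017 with 0.03 and 0.1 μg/kg only. With 1 mouse left out the ranges that crossed zero were -0.152 to 0.151 (Nqo1), -0.0083 to 0.055 (Arnt), -0.00076 to 0.184 (Nfe2l2), -0.0083 to 0.265 (Ahrr), -0.124 to 0.265 (Ugt1a6a), -8.08 to 6.18 (Ctrb1) and -0.617 to 0.366 (Hoxb13). The pancreas median ranged to -8.90 with the clock score, was -1.66 by limma voom, and was 1.80 without mice 3 and 14, where the MHC class II median was -0.08. The mean Cyp1a1 difference stayed between -0.0492 and -0.00089 CPM with 1 mouse left out (exact permutation p from 0.40 to 0.982).

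No paired analysis was possible because no number is shared between groups. With 3 vehicle mice, 1 of them holding pancreatic transcripts, small changes can be missed: the median half-width of the interval was 0.22 on the log2 scale at 5 CPM or more.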
